A study of Mus musculus with 70 samples.

Results

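Liver GFP cells of caMKK6 mice were compared with liver GFP cells of control mice, both on doxycycline, in 2 libraries against 2, which are 4 of the 70 libraries of the series and 4 of its 23 liver libraries. MKK6 is a kinase that activates the stress kinase p38, and caMKK6 is its constitutively active form, switched on by doxycycline. The mice were double-coloured chimeras, in which mCherry-positive cells are the ones labelled as primary senescent and GFP-positive cells are the ones around them. The 4 libraries were chosen by their labels alone. All came from male C57BL/6 mice of day 7 with 2 mg/mL doxycycline and 10 mg/mL sucrose in the drinking water, of the genotype caMKK6 or Control. Hepatocytes were enriched by perfusion of the liver and spins at 50 g, sorted by colour, and sequenced from 50 ng of RNA. Liver GFP cells without doxycycline (3 caMKK6 and 3 control libraries) and the mCherry cells of the same 4 mice served as further comparisons. Liver libraries of another genotype, caMEK1, were not compared here. They entered the estimate of the spread, the filter on low values and the scaled runs. Where those mice had doxycycline, it was at 0.2 mg/mL. The promoter that drives the kinase and the age of the mice are not given in the sources used here.

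Male mouse liver carries a gene program set by the pulses of growth hormone, which act through the growth hormone receptor and the transcription factor STAT5b on genes of steroid metabolism, pheromone carriers (the major urinary proteins) and drug metabolism. Hepatocytes also make the acute phase proteins of the blood, driven by interleukin 6 through STAT3, by interleukin 1, and by C/EBP factors.

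The sorting was checked on the reporters first. EGFP stood at 159 and 31.9 FPKM (read abundance scaled by exon length and library depth) in the caMKK6 GFP libraries and at 70.2 and 72.1 FPKM in the control GFP libraries. The mCherry reporter stood at 1.16 and 24.7 FPKM in the caMKK6 GFP libraries and at 678 and 749.6 FPKM in the control GFP libraries, which is 0.684%, 2.74%, 14.3% and 18.8% of its level in the mCherry library of the same mouse. The human MKK6 transgene was listed at 1.51 and 30.9 FPKM in the caMKK6 GFP libraries, 0.698% and 2.55% of its level in the mCherry libraries of those mice, and at 0 in both control libraries. In 1 alternative run the mCherry reporter was taken as a measure of RNA carried over from mCherry cells, which was not tested. With such RNA subtracted in proportion, 2031 genes were called in the comparison below in place of 1560. Endogenous Map2k6, which encodes mouse MKK6, stood at 2.84 and 1.40 FPKM against 1.43 and 2.20 FPKM. The hepatocyte markers summed to 36812 and 44157 FPKM against 47543 and 46845 FPKM. None of these 10 markers was at 0, and 1 of them, Fabp1, fell. Depth of the 4 libraries was 12159700 to 14534300 reads, as recovered from the smallest steps of their FPKM values.

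The 2 caMKK6 mice differed more from each other than the control mice did. Over genes the correlation of their GFP libraries was 0.881, against 0.985 for the 2 control libraries. Kupffer cell and macrophage markers summed to 89.7 and 411 FPKM in caMKK6 and 176 and 565 FPKM in control, so that replicate 2 of each genotype was the higher, and none of the 16 was called. Endothelial markers summed to 112 and 274 FPKM against 100.04 and 179 FPKM, and stellate markers to 28.4 and 73.8 FPKM against 37.7 and 106 FPKM, again with none called. Erythroid and platelet markers summed to 1.70 and 6.60 FPKM against 62 and 55.8 FPKM, with 2 of 5 tested called lower. Of the 10, 3 were at 0 and 8 under 1 FPKM in all 4 libraries. Nearly all of the control sum came from Alas2, whose values are given below. Of the lymphocyte markers, which summed to 0.101 and 1.24 FPKM against 1.75 and 2.43 FPKM, 5 of 12 were at 0 in all 4 libraries and 1 of 2 tested, Cd4, was called lower, though not without caMKK6 replicate 1 or control replicate 1. The 1 pancreatic enzyme gene tested, Cela1, was called lower at 0.388 and 1.28 FPKM against 12 and 10.9 FPKM, where the 13 of that list summed to 0.787 and 3.16 FPKM against 13.9 and 11.2 FPKM and 3 were at 0 in all 4. None of 3 cholangiocyte and 7 neutrophil markers tested was called. Their part in the results was not tested. In bulk RNA, fewer cells of a type and less RNA per cell cannot be told apart.

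Of 10371 genes tested with limma on log2(FPKM + 1), 226 rose in caMKK6 GFP cells (2.18% of those tested) and 1334 fell (12.9%), at a Benjamini-Hochberg adjusted p below 0.05. The counts of each list below are to be read against these shares. Every called gene had both caMKK6 libraries on the called side of both control libraries. Groups that did not overlap were seen for 5707 genes, 55% of those tested. The shift was larger in replicate 1 for 175 of the 226 genes that rose and for 1191 of the 1334 that fell. The median shift from the control mean was 1.64 in replicate 1 and 0.90 in replicate 2 for genes that rose, and -1.19 and -0.64 for genes that fell. The median difference over all genes tested was -0.18, and with libraries scaled to a common median 383 genes rose and 448 fell, against 314 and 334 after quantile normalization, so the excess of falls depends on the scaling. The number called was 177 without control replicate 1, 286 without control replicate 2, 189 without caMKK6 replicate 1 and 3671 without caMKK6 replicate 2. It was 14 when the spread was estimated from these 4 libraries alone. P-values rest on the spread between mice within all 9 liver groups, those of caMEK1 mice among them. The 2 groups compared here had 2 mice each. The fit took the GFP and mCherry libraries of a mouse as independent. Their residuals correlated by animal at 0.502 (limma duplicateCorrelation), and with the animal as a block 1894 genes were called.

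**Figure D1:**
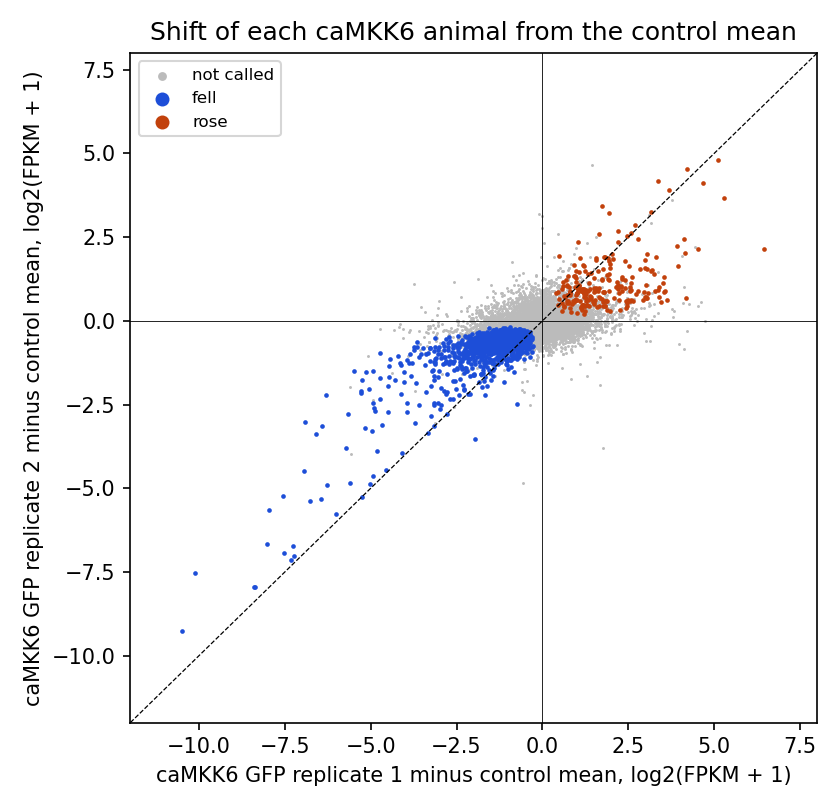
Shift of each tested gene from the mean of the 2 control GFP libraries, in caMKK6 GFP replicate 1 (x axis) and replicate 2 (y axis), on the log2(FPKM + 1) scale; the dashed line marks equal shifts. Called genes lie on the same side of 0 in both mice, and most lie farther from 0 in replicate 1 (175 of 226 rises and 1191 of 1334 falls).

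Among the 12 largest rises were the acute phase genes Lcn2, Saa2, Orm2 and Serpina3n. The others were Isyna1, Lepr, Cyp17a1, Bmper, Mfsd2a, Nipal1, Por and Nrg4. Among the 12 largest falls were 6 major urinary protein genes (Mup17, Mup9, Mup16, Mup21, Mup18 and Mup11), whose near-identical copies share reads, so that the share of each is uncertain. The rest were Car3, Elovl3, Selenbp2, Hsd3b5, Sult2a8 and Cyp4a12a. Of these 24 calls, 15 held without each of the 4 libraries in turn, namely those of Lcn2, Isyna1, Cyp17a1, Bmper, Nipal1, Mup17, Car3, Elovl3, Mup16, Mup21, Selenbp2, Mup18, Hsd3b5, Sult2a8 and Cyp4a12a.

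**Figure D2:**
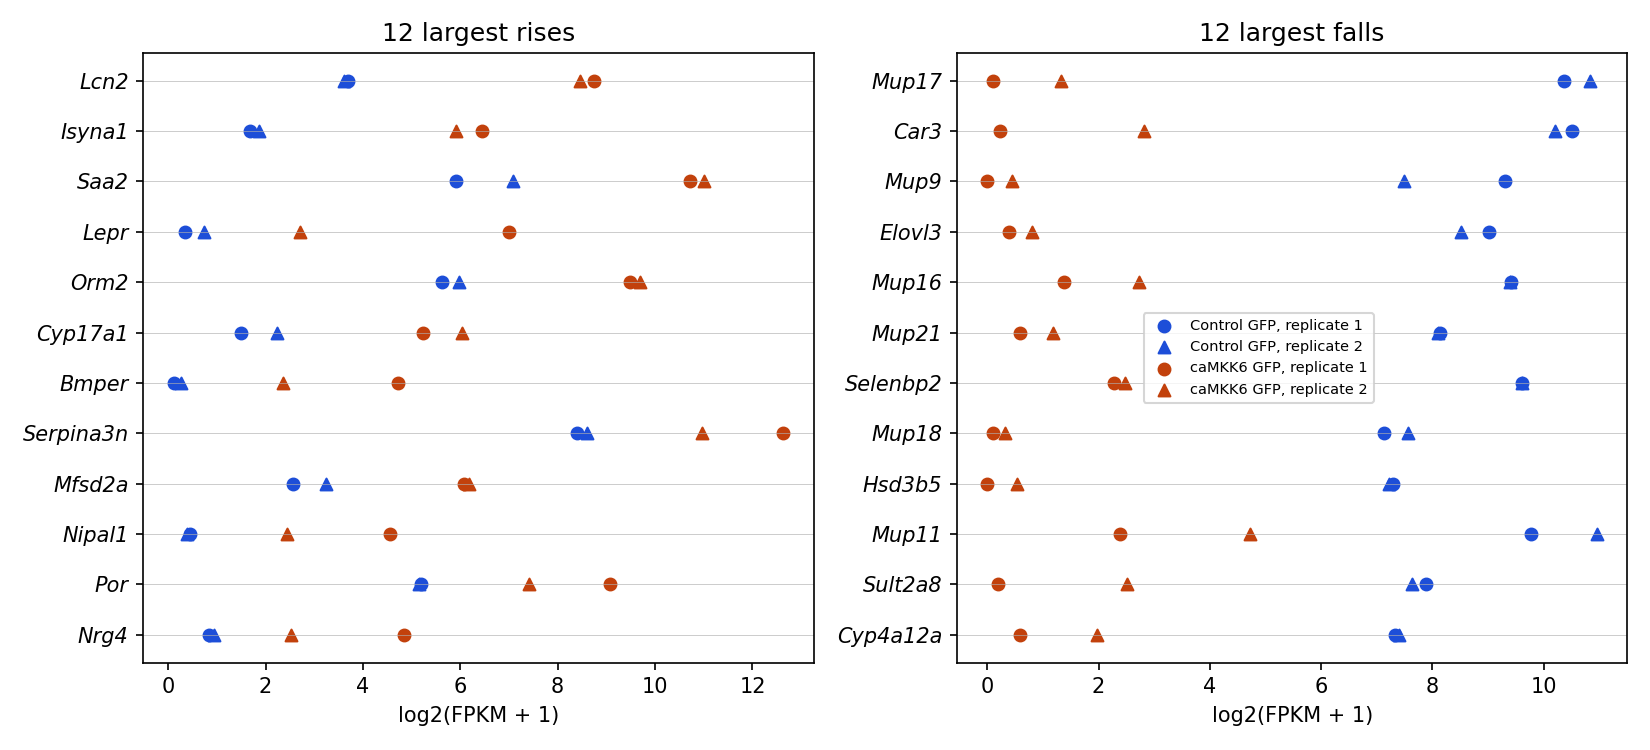
Level of the 12 largest rises (left) and the 12 largest falls (right) in each GFP library on doxycycline, as log2(FPKM + 1); circles are replicate 1 and triangles replicate 2. For Elovl3 the caMKK6 libraries stood at 0.314 and 0.746 FPKM and the control libraries at 516 and 363 FPKM, and for Lcn2 at 431 and 351 FPKM against 11.9 and 11.2 FPKM.

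Isyna1, the enzyme that makes inositol phosphate from glucose phosphate, stood at 86.8 and 59 FPKM in caMKK6 GFP cells against 2.22 and 2.67 FPKM in control GFP cells, a difference of 4.40 ± 0.54 (SE) on the log2 scale (limma, adjusted p = 8.8e-05). Both mice were far above both controls. Lepr, the leptin receptor, stood at 127 and 5.49 FPKM against 0.270 and 0.665 FPKM (difference 4.31 ± 1.05, limma adjusted p = 0.015), so most of its rise came from replicate 1. Cyp17a1, a steroid 17-hydroxylase and lyase, stood at 36.5 and 64.3 FPKM against 1.81 and 3.74 FPKM (difference 3.76 ± 0.61, limma adjusted p = 0.0012), with replicate 2 the higher. Por, the electron donor of the microsomal cytochromes P450, stood at 538 and 169 FPKM against 35.4 and 34.5 FPKM and rose by 3.07 ± 0.61. Bmper, an extracellular regulator of BMP signalling, stood at 25.4 and 4.09 FPKM against 0.0821 and 0.204 FPKM. Mfsd2a, a lysolipid transporter, was about even in the 2 mice at 66.3 and 71.1 FPKM, against 4.90 and 8.52 FPKM. Nrg4, a growth factor of the EGF family, stood at 27.7 and 4.76 FPKM against 0.784 and 0.921 FPKM, and Nipal1, a magnesium transporter, at 22.4 and 4.43 FPKM against 0.361 and 0.300 FPKM. Replicate 1 was the higher for both of these and for Bmper.

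The growth hormone axis and male-biased genes were the list with the lowest median. Of 27 tested, 17 fell and none rose, with a median difference of -3.89 against -0.18 over all genes tested. The median shift was -4.66 in replicate 1 and -3.12 in replicate 2. The count that fell was 14, 18, 13 and 14 without caMKK6 replicate 1, caMKK6 replicate 2, control replicate 1 and control replicate 2, in that order, and 16 after median scaling and 17 after quantile normalization. It was 6 with the spread of the 4 libraries alone.

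Elovl3 (chr19:46131897-46135694, GRCm38), which lengthens fatty acids, went from 516 and 363 FPKM in control GFP cells to 0.314 and 0.746 FPKM in caMKK6 GFP cells (difference -8.16 ± 0.34, limma adjusted p = 2.9e-11). Hsd3b5 (chr3:98618634-98630252, GRCm38), a male-specific steroid dehydrogenase, stood at 156 and 148 FPKM in control and at 0 and 0.451 FPKM in caMKK6 cells (difference -6.99 ± 0.22, limma adjusted p = 7.1e-13). For both genes the 2 caMKK6 libraries were close to 0 and the groups were far apart. Slco1a1, a bile acid and anion transporter of male liver, stood at 0.287 and 0.529 FPKM against 84.4 and 81.4 FPKM (difference -5.90 ± 0.25, limma adjusted p = 2.9e-11). Cyp7b1, which hydroxylates oxysterols, stood at 8.48 and 17 FPKM against 256 and 274 FPKM and fell by 4.34 on the log2 scale. Cyp4a12a, a fatty acid hydroxylase with a near-identical copy in Cyp4a12b, stood at 0.511 and 2.95 FPKM against 159 and 167 FPKM. All of these were lower in both mice, with replicate 1 the lower.

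The receptor itself, Ghr, fell from 65.8 and 66.1 FPKM to 3.86 and 27 FPKM (difference -2.52 ± 0.59, limma adjusted p = 0.013), more in replicate 1. Other parts of the axis did not pass the test. Igf1, the hormone that hepatocytes release under growth hormone, stood at 64.8 and 80.1 FPKM against 63.6 and 80.6 FPKM, a difference of 0.01 ± 0.28 (limma adjusted p = 0.99). Stat5b stood at 14 and 14.1 FPKM against 18.8 and 16.9 FPKM. The feedback inhibitors Socs2, at 8.68 and 1.96 FPKM against 3.44 and 1.03 FPKM, and Cish, at 2.49 and 4.27 FPKM against 5.10 and 2.31 FPKM, overlapped between the groups. Igfals, which carries IGF1 in blood, stood at 2.06 and 23 FPKM against 27.6 and 38.6 FPKM (limma adjusted p = 0.064, and 0.028 with the animal as a block).

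**Figure D3:**
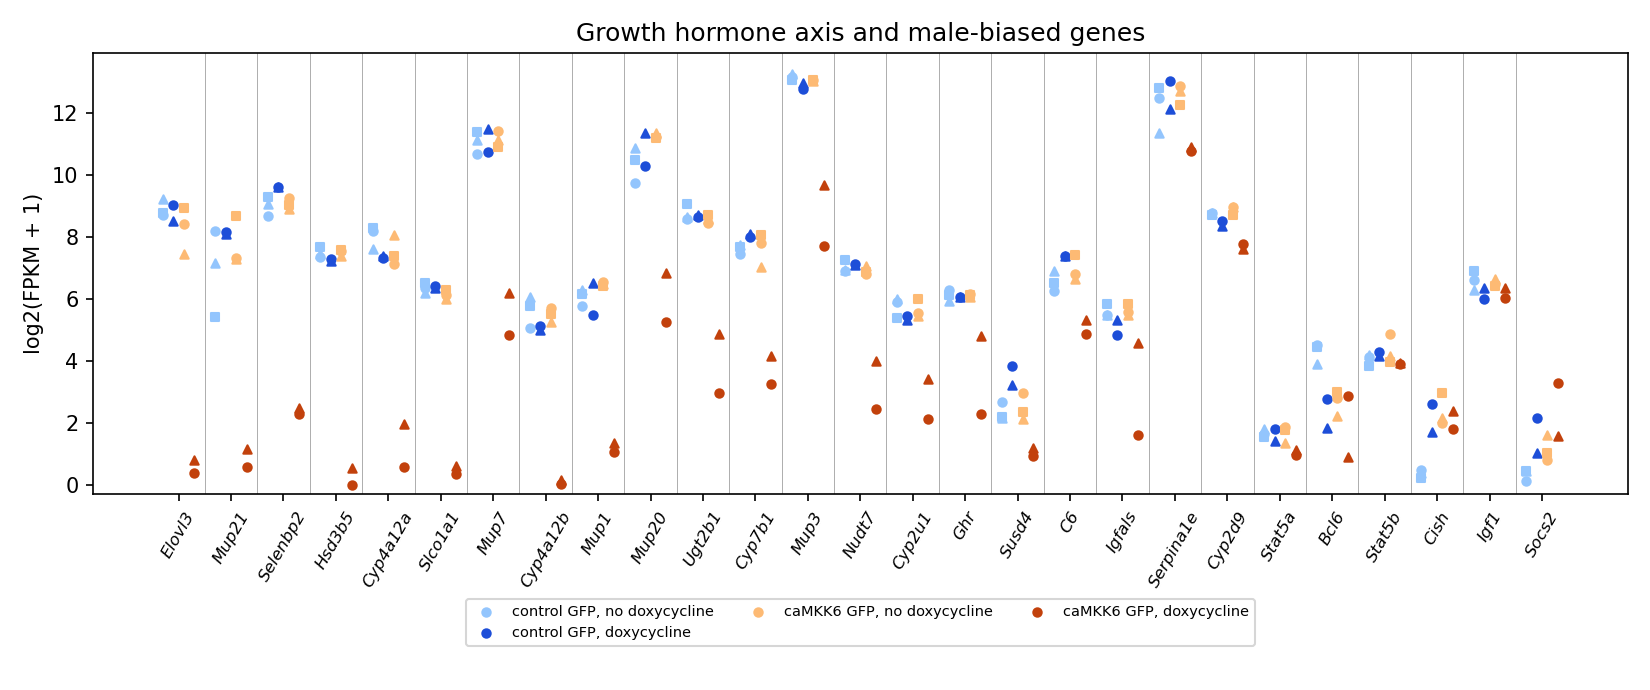
Growth hormone axis and male-biased genes in each liver GFP library, as log2(FPKM + 1), ordered by the difference between caMKK6 and control on doxycycline; circles, triangles and squares are replicates 1 to 3. The caMKK6 libraries on doxycycline stand below the other 3 groups for Elovl3 and Hsd3b5, and for Igf1 they lie at 64.8 and 80.1 FPKM against 63.6 and 80.6 FPKM in control.

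Of 20 female-biased liver genes tested, 5 rose and 1 fell. The count that rose was 2, 5, 2 and 2 without caMKK6 replicate 1, caMKK6 replicate 2, control replicate 1 and control replicate 2, in that order. Sult1e1, which sulfates oestrogens, stood at 4.65 and 6.81 FPKM against 0.320 and 0.132 FPKM (difference 2.44 ± 0.37, limma adjusted p = 6.8e-04). Tox, a nuclear DNA-binding protein, stood at 10.2 and 1.17 FPKM against 0.0939 and 0.0540 FPKM, and Cux2, a female-specific transcription factor of mouse liver, at 11.1 and 0.893 FPKM against 0.0315 and 0.0571 FPKM, each with most of the rise in replicate 1. Cyp17a1, given above, and Trim24 also rose. The member that fell was Sult2a8, a sulfotransferase, at 0.147 and 4.72 FPKM against 235 and 197 FPKM. Unlike Sult1e1, Tox, Cux2 and Cyp17a1, it was high in these male control mice, so its place on this list is uncertain.

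Acute phase genes were the list with the highest median. Of 30 tested, 9 rose (Lcn2, Saa2, Orm2, Serpina3n, Apcs, Itih3, Itih4, Hpx and Hp) and 1 fell (Saa4), with a median difference of 1.47. The median shift was 1.78 in replicate 1 and 1.18 in replicate 2. The count that rose was 5, 15, 5 and 7 without caMKK6 replicate 1, caMKK6 replicate 2, control replicate 1 and control replicate 2, in that order. It was 8 after median scaling, 11 after quantile normalization, 15 with the animal as a block and 1 with the spread of the 4 libraries alone.

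Lcn2, the iron-scavenging lipocalin 2, stood at 431 and 351 FPKM in caMKK6 GFP cells against 11.9 and 11.2 FPKM in control GFP cells (difference 4.96 ± 0.66, limma adjusted p = 2.0e-04). Itih4, of the inter-alpha-trypsin inhibitor heavy chain family, stood at 3648 and 3583 FPKM against 916 and 874 FPKM (difference 2.01 ± 0.27, limma adjusted p = 2.0e-04). In these genes the 2 caMKK6 mice were close to each other. Serpina3n, a protease inhibitor, stood at 6367 and 1993 FPKM against 338 and 389 FPKM (difference 3.29 ± 0.58, limma adjusted p = 0.0022), with replicate 1 the higher. Apcs, serum amyloid P, stood at 1221 and 1279.5 FPKM against 229.5 and 211 FPKM. The haem carrier Hpx stood at 14713 and 12602 FPKM against 3798 and 4896 FPKM. Saa2 and Orm2 have near-identical copies, so their shares are uncertain; Saa2 stood at 1673 and 2066 FPKM against 59.1 and 134 FPKM, and Orm2 at 713 and 824 FPKM against 48.1 and 61.4 FPKM.

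Members that did not pass the test spread widely. Fga, Fgb and Fgg, the 3 fibrinogen chains, were above control in both mice with adjusted p-values of 0.063, 0.059 and 0.067 (limma), which were 0.037, 0.034 and 0.04 with the animal as a block. Hamp, which encodes the iron hormone hepcidin, stood at 4178 and 1682 FPKM against 509 and 653 FPKM (limma adjusted p = 0.072, and 0.044 with the animal as a block). The metallothionein Mt2 stood at 3019 and 633 FPKM against 134 and 141 FPKM (limma adjusted p = 0.087), with the 2 mice far apart. Crp stood at 46.5 and 191 FPKM against 106 and 109 FPKM, on both sides of control. Il6 was listed at 0 in all 4 libraries.

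The promoters of 3 of the acute phase genes that rose and of 1 male-biased gene that fell are shown because the 2 groups moved in opposite directions, and the factors named above bind short sequences of known form. These windows of 300 bases around the RefSeq gene start (GRCm38.p6, given 5′ to 3′ on the gene's strand) were searched on both strands for TTCNNNGAA (the STAT motif) and TTGNGNAA (the C/EBP motif). Capitals mark a match. The 4 genes were chosen after their values were seen.
Lcn2, chr2:32387690-32387989, minus strand: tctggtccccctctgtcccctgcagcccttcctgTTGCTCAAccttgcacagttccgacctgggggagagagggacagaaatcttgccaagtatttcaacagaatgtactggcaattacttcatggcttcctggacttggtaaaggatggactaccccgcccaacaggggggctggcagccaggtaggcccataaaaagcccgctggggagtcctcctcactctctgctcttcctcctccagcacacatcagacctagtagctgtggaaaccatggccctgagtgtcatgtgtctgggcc
Saa2, chr7:46751583-46751882, plus strand: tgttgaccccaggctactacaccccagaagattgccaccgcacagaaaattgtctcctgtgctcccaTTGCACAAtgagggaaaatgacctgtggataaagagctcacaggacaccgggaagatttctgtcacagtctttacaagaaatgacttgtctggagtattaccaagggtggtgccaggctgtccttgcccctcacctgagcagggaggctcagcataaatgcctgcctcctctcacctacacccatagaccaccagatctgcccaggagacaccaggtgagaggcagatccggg
Itih4, chr14:30886226-30886525, plus strand: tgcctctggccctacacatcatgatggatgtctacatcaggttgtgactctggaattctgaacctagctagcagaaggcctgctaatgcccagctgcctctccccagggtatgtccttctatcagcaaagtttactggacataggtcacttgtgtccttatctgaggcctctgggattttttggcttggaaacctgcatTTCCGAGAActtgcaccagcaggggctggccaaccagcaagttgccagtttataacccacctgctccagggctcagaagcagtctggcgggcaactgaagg
Slco1a1, chr6:141946913-141947212, minus strand: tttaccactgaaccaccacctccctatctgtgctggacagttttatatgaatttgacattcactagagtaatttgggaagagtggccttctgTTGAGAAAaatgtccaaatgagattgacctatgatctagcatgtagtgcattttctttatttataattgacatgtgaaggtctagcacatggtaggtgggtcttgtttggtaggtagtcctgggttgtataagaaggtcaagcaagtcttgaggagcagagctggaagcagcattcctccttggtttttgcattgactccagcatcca
The Lcn2, Saa2 and Slco1a1 windows each hold 1 C/EBP match and the Itih4 window 1 STAT match. Windows were found for 8 of the 9 acute phase genes that rose and 11 of the 17 male-biased genes that fell. A C/EBP match was found for 4 of the 8 acute phase genes that rose (11 of 23 for the whole list). It was found for 4 of the 11 male-biased genes that fell (4 of 19 for the whole list). The share was 12.7% of 8332 tested genes with a window and 13.3% of all 32851 windows. Those 4 male-biased genes were Slco1a1, Mup3, Mup7 and Mup21, and the Mup genes are close copies, so their windows are not independent. A STAT match was in 2 of the 8 and 0 of the 11 (7 of 23 and 3 of 19 for the whole lists). The share was 8.08% of the tested genes and 8.3% of all windows. A match is a description of these letters, not a binding site.

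**Figure D4:**
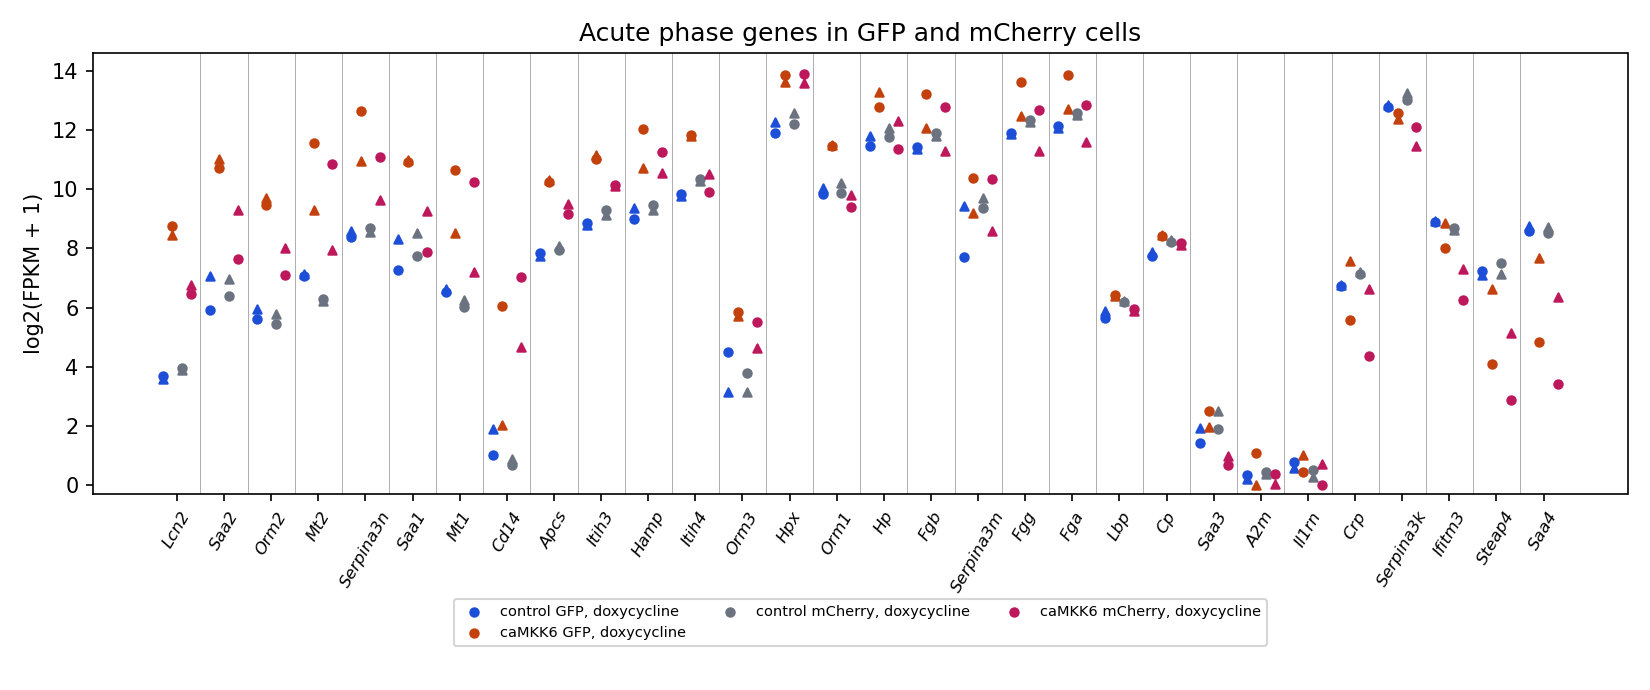
Acute phase genes in GFP and mCherry libraries on doxycycline, as log2(FPKM + 1), ordered by the GFP difference between caMKK6 and control; circles are replicate 1 and triangles replicate 2. For Itih4 the caMKK6 GFP libraries (3648 and 3583 FPKM) stand above the caMKK6 mCherry libraries (970.4 and 1454 FPKM), and for Hpx both colours of caMKK6 stand above control.

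Complement and coagulation factors split. Of 35 tested, 5 rose and 9 fell. The count that fell was 2, 15, 3 and 3 and that rose 1, 4, 1 and 1 without caMKK6 replicate 1, caMKK6 replicate 2, control replicate 1 and control replicate 2, in that order. C3, the central complement protein, stood at 6131 and 8699 FPKM against 2845 and 3424 FPKM. Terminal components were among those that fell, with C6 at 28.1 and 39.5 FPKM against 165 and 166 FPKM and C9 at 72.1 and 237 FPKM against 645 and 707 FPKM. F11, coagulation factor XI, stood at 7.34 and 13.4 FPKM against 62.1 and 58.6 FPKM (difference -2.49 ± 0.31, limma adjusted p = 9.2e-05). Of 24 cytokine receptors and signalling brakes 3 rose and 6 fell. The rises were 0, 7, 1 and 1 and the falls 2, 5, 1 and 1 with the same libraries left out, and 3 rose and 2 fell after quantile normalization. Il1r1, the interleukin 1 receptor, stood at 59.5 and 28.7 FPKM against 14.6 and 10.5 FPKM, and Lifr, the LIF receptor, at 17.7 and 32 FPKM against 68.7 and 109 FPKM. Tnfaip3, an inhibitor of NF-kB, fell from 2.75 and 3.16 FPKM to 0.952 and 0.451 FPKM.

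Interferon-stimulated genes were lower. Of 28 tested, 16 fell and none rose, with a median difference of -0.96. The count was 3, 22, 5 and 7 without caMKK6 replicate 1, caMKK6 replicate 2, control replicate 1 and control replicate 2, in that order. It was 9 after median scaling and 8 after quantile normalization. Ifi47, an interferon-induced GTPase, stood at 1.42 and 5.80 FPKM against 13.3 and 16.3 FPKM (difference -1.95 ± 0.31, limma adjusted p = 9.7e-04). Ifit3, an antiviral protein, stood at 0.394 and 1.29 FPKM against 5.05 and 5.84 FPKM. Cxcl10, a chemokine, stood at 0.122 and 0.241 FPKM against 1.41 and 1.86 FPKM. B2m, the light chain of MHC class I, stood at 515 and 865 FPKM against 1542 and 1676 FPKM. In all of these the caMKK6 libraries were below both controls, replicate 1 the lower. Of 15 MHC class I presentation genes, B2m among them, 5 fell (0, 9, 0 and 0 with the same libraries left out, 2 after median scaling and 1 after quantile normalization).

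Metabolic lists fell in part, where 12.9% of all genes tested fell and 2.18% rose. Of 36 fatty acid oxidation genes and PPAR-alpha targets, 16 fell and 2 rose. Fabp1, the fatty acid carrier of hepatocytes, stood at 11.9 and 70.3 FPKM against 1818 and 1383 FPKM (difference -5.71 ± 0.93, limma adjusted p = 0.0012), and Acaa1b, a peroxisomal thiolase, at 0.666 and 15.1 FPKM against 166 and 119 FPKM. Of 39 conjugating transferases 16 fell and none rose, with Ugt2b1 at 6.77 and 28.6 FPKM against 396 and 420.1 FPKM. Of 48 cytochromes P450, 11 fell and 4 rose. Cyp1a2, a pericentral drug-metabolizing enzyme, stood at 14 and 50.5 FPKM against 389.7 and 292 FPKM, and Cyp2f2, a periportal one, at 50.9 and 452 FPKM against 1103 and 1198 FPKM. Of 24 sterol synthesis genes 8 fell, with Tm7sf2, a sterol reductase, at 4.30 and 3.98 FPKM against 18.7 and 14.2 FPKM. After median scaling 448 of all 10371 genes tested fell. The falls were then 6 in fatty acid oxidation, 7 in transferases, 7 in cytochromes P450 and 2 in sterol synthesis. With single libraries left out the count over all genes moved too, as given above. The falls were 1, 20, 1 and 3 in fatty acid oxidation without caMKK6 replicate 1, caMKK6 replicate 2, control replicate 1 and control replicate 2, in that order, and on the same terms 5, 26, 4 and 5 in transferases, 6, 20, 6 and 6 in cytochromes P450 and 1, 15, 1 and 2 in sterol synthesis.

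Hepatocyte genes that differ along the lobule were called in both directions. Of 23 pericentral genes tested 7 fell and none rose, and of 23 periportal genes 4 rose and 2 fell. Lect2, a secreted pericentral protein, stood at 6.74 and 13.8 FPKM against 71.2 and 48.4 FPKM, and Tbx3, a transcription factor of pericentral cells, at 0.467 and 1.60 FPKM against 9.60 and 3.55 FPKM. Sdsl and Sds, which belong to serine breakdown, stood at 65.2 and 17.4 FPKM against 4.56 and 7.75 FPKM and at 523 and 166 FPKM against 71 and 111 FPKM, both higher mainly in replicate 1. The apolipoprotein Apoa4 was close in both mice, at 115 and 139 FPKM against 35.7 and 41.8 FPKM. The pericentral falls were 0, 12, 0 and 4 and the periportal rises 1, 6, 0 and 0 without caMKK6 replicate 1, caMKK6 replicate 2, control replicate 1 and control replicate 2, in that order. After median scaling they were 4 and 5.

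Of 28 genes of bile acid synthesis and transport 7 fell and none rose (3, 15, 2 and 3 fell with the same libraries left out, 4 after median scaling and 11 with the animal as a block). Besides Cyp7b1 and Slco1a1, given above, they included Akr1c6, a hydroxysteroid dehydrogenase, at 5.48 and 46.5 FPKM against 377 and 281 FPKM, and Scp2, a sterol carrier, at 106 and 307 FPKM against 918 and 822 FPKM. Of 23 fatty acid synthesis genes 5 fell (1, 19, 1 and 1, 1 after median scaling and 9 with the animal as a block), with Acacb, an acetyl-CoA carboxylase, at 2.04 and 7.89 FPKM against 17.4 and 14.2 FPKM. Of 31 plasma carriers and apolipoproteins 4 rose and 3 fell (5 with the animal as a block). Serpina6, which carries corticosteroids in blood, stood at 1.05 and 17.7 FPKM against 82.3 and 74.6 FPKM, and Apoa5, a regulator of plasma triglyceride, at 1223 and 335 FPKM against 191 and 263 FPKM. Without caMKK6 replicate 1 or either control library no plasma carrier or apolipoprotein was called. Of 25 hepatocyte transcription factors 1 rose, the coactivator Ppargc1a at 14.3 and 4.28 FPKM against 1.49 and 1.77 FPKM, and 3 fell, among them the nuclear receptor Nr0b2 at 4.68 and 16.5 FPKM against 34.2 and 26.2 FPKM. These shares are near those of all genes tested, of which 15% were called and 12.9% fell. Without control replicate 2, 1 of these 25 fell and none rose, and without caMKK6 replicate 1 or control replicate 1 none was called.

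Of 20 NRF2 targets 4 fell (0, 7, 0 and 1 in the same order), with Gclc, which makes the glutathione precursor, at 11.1 and 36.1 FPKM against 96.6 and 74.6 FPKM. Of 20 genes of ER chaperones and the unfolded protein response 2 fell (0, 14, 0 and 0, and 5 with the animal as a block), Dnajb9 and Syvn1, a share below the 12.9% of all genes that fell. Syvn1, a ubiquitin ligase of the ER, stood at 13.3 and 14.9 FPKM against 42.6 and 49.7 FPKM. Of 5 erythroid and platelet markers tested 2 fell, and 1 of them was Alas2, the erythroid form of the first enzyme of haem synthesis, at 0.830 and 4.78 FPKM against 60.6 and 51.7 FPKM. The other, the globin Hbb-bs, whose close copies share reads, stood at 0.0896 and 0.404 FPKM against 0.827 and 2.68 FPKM, and was not called with the animal as a block (limma adjusted p = 0.056).

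Oxidative phosphorylation subunits fell by less each but in number. Of 29 tested, 20 fell and none rose, with a median of -0.84, and Ndufb3, a complex I subunit, stood at 10.6 and 20.6 FPKM against 44.8 and 38.2 FPKM. That count was 9 after median scaling, 1 after quantile normalization and 0, 21, 0 and 1 without caMKK6 replicate 1, caMKK6 replicate 2, control replicate 1 and control replicate 2, in that order. Of 25 proteasome subunits 8 fell, 1 after either scaling and 0, 17, 0 and 0 with the same libraries left out. None of 34 ribosomal protein genes was called, with a median of -0.04 that was 0.15 after median scaling. Of 16 heat shock genes 8 fell (2, 9, 2 and 1 in the same order), with Hspa1b, whose copy Hspa1a shares reads, at 0.515 and 0.498 FPKM against 12.1 and 16.8 FPKM and Dnajb1, an HSP40 co-chaperone, at 3.69 and 3.56 FPKM against 11 and 12.4 FPKM.

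**Figure D5:**
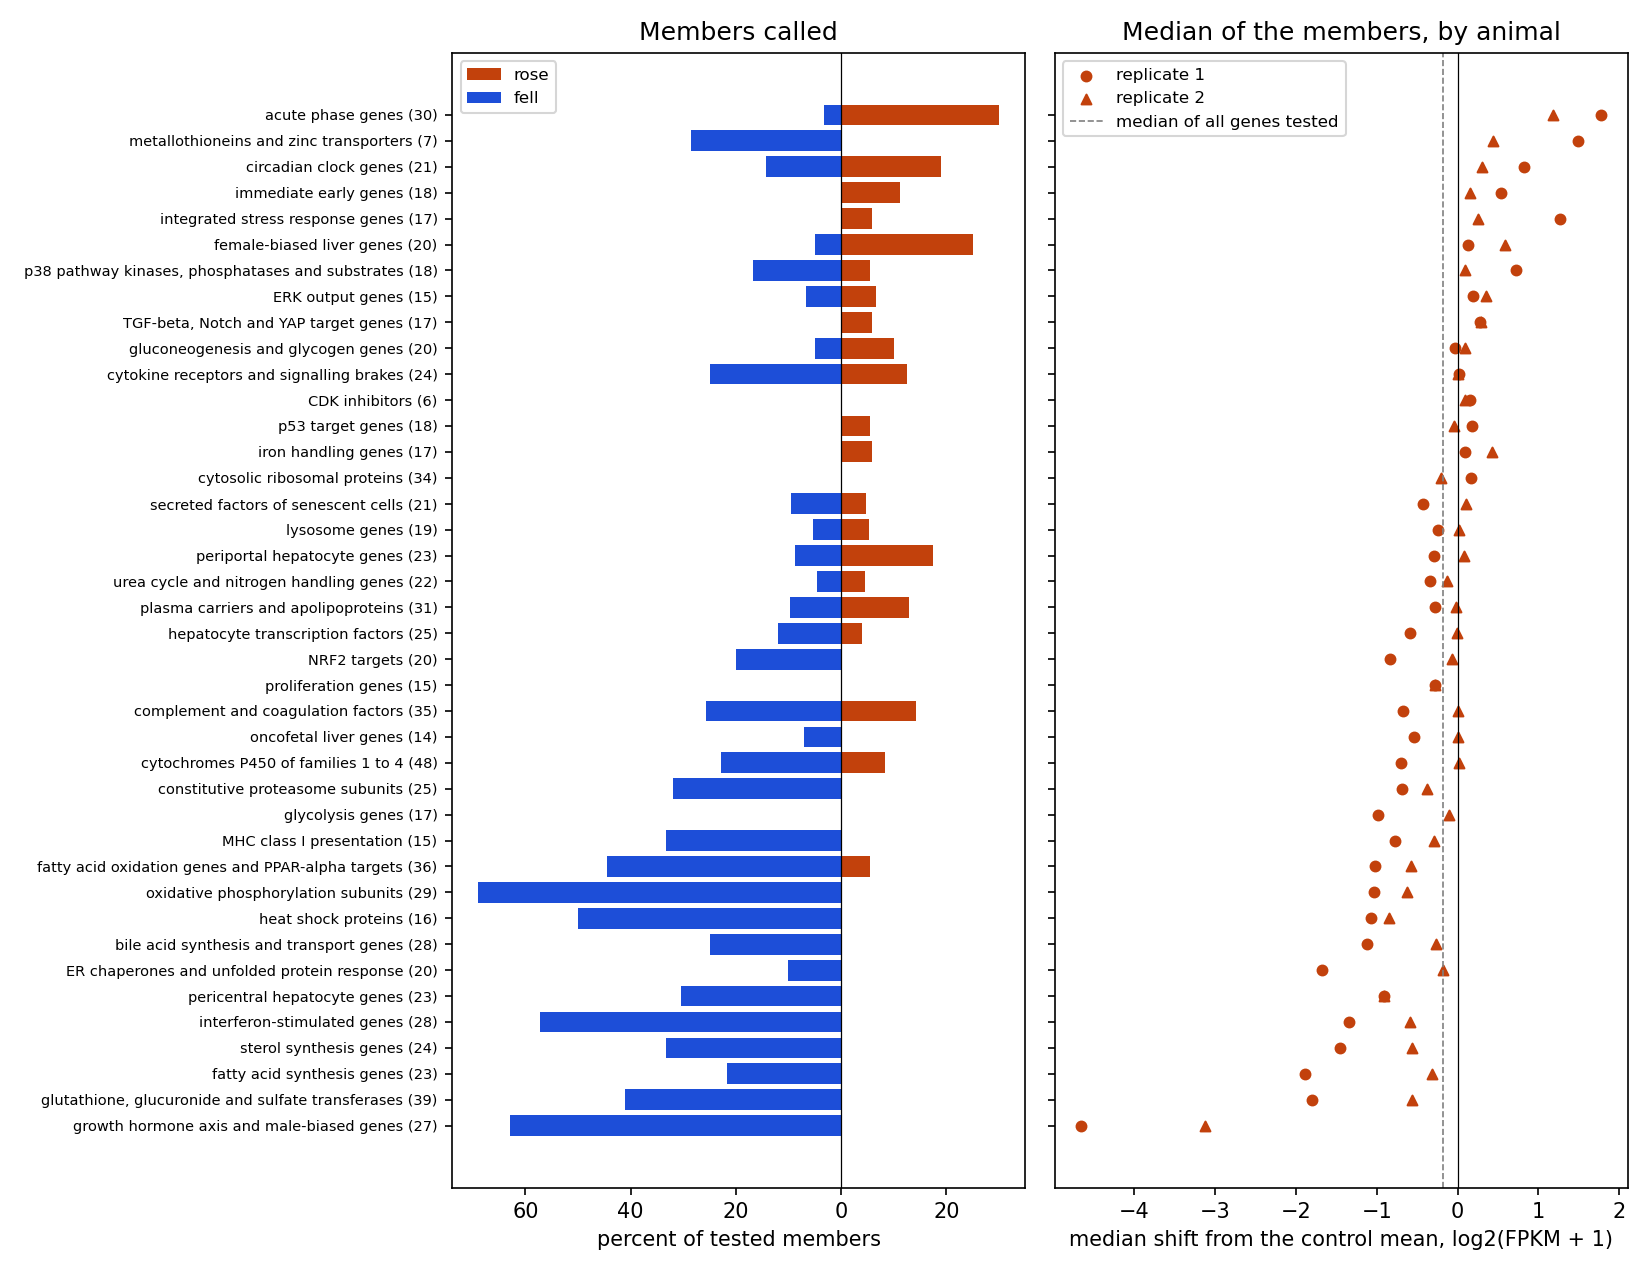
Gene lists ordered by their median difference, with the number of members tested in parentheses: percent of members that rose or fell (left), and the median shift of each caMKK6 mouse from the control mean on the log2(FPKM + 1) scale (right; the dashed line is the median of all genes tested, -0.18). Acute phase genes are at the top at 1.78 and 1.18, and male-biased genes at the bottom at -4.66 and -3.12.

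Of the genes tied to senescence, no CDK inhibitor of 6 was called and no proliferation gene of 15. Cdkn1a (p21) stood at 10.3 and 6.92 FPKM against 11.5 and 10.2 FPKM, Cdkn1b at 7.12 and 3.72 FPKM against 5.93 and 4.93 FPKM, and Cdkn2a was listed at 0 in all 4 libraries. Cdkn2b stood at 0.0495 and 0.223 FPKM against 0.114 and 0.118 FPKM, Lmnb1, a nuclear lamin, at 1.09 and 1.13 FPKM against 1.58 and 1.55 FPKM, Mki67 at 0.0547 and 0.0925 FPKM against 0.268 and 0.899 FPKM, and Gdf15 at 2.67 and 4.86 FPKM against 3.69 and 6.13 FPKM. Of 21 secreted factors of senescent cells 1 rose (Igfbp5) and 2 fell, a share near the 15% of all genes called, with Cxcl1, a neutrophil chemokine, at 8.07 and 2.03 FPKM against 33.4 and 34.9 FPKM. Of 18 p38 pathway genes 1 rose and 3 fell, but 5 rose and 1 fell after median scaling and 3 rose and none fell after quantile normalization, so the direction of the list turned with the scaling. The rises were 0, 8, 0 and 1 and the falls 0, 2, 0 and 0 without caMKK6 replicate 1, caMKK6 replicate 2, control replicate 1 and control replicate 2, in that order. The one that rose was Dusp8, a phosphatase of p38 and JNK, at 11.2 and 2.18 FPKM against 0.456 and 0.591 FPKM, and among those that fell was Map2k3, another activator of p38, at 7.10 and 12.9 FPKM against 16.6 and 15.3 FPKM. Of 18 p53 targets 1 rose, and of 18 immediate early genes 2 rose, with no fall in either list, where 15% of all genes were called. The p53 target was Sesn2, a stress-induced gene, at 55.4 and 4.06 FPKM against 1.55 and 2.84 FPKM. Klf6, an immediate early gene, stood at 37.9 and 6.48 FPKM against 2.89 and 3.20 FPKM. Both were higher mainly in replicate 1. Their differences were 0.69 and 0.89 without caMKK6 replicate 1, against 4.17 and 3.26 without replicate 2.

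Clock genes also differed. Of 21 tested, 4 rose and 3 fell. The count that rose was 0, 8, 0 and 0 and that fell 1, 6, 1 and 1 without caMKK6 replicate 1, caMKK6 replicate 2, control replicate 1 and control replicate 2, in that order. The output genes Tef, at 25 and 7.10 FPKM against 2.06 and 1.78 FPKM, and Dbp, at 12.4 and 1.61 FPKM against 0.239 and 0.137 FPKM, were higher mainly in replicate 1, and Npas2 and Arntl, which drive the clock, stood at 0.115 and 0.518 FPKM against 4.24 and 3.38 FPKM and at 1.69 and 2.04 FPKM against 5.52 and 5.51 FPKM. The hour of collection is not given in the sources used here, and its part in the other results was not tested.

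Comparison with mice without doxycycline addressed whether the genotypes differed without it. Without doxycycline no gene was called between caMKK6 and control GFP cells (limma, 340 of 10371 had an unadjusted p below 0.05). Some lists were still lower in caMKK6 there. The median was -0.55 for ER chaperones and the unfolded protein response and -0.41 for heat shock genes, against -0.05 over all genes. On doxycycline these 2 lists had medians of -0.90 and -0.87. Without it the median was 0.02 for male-biased genes and 0.20 for acute phase genes. In control GFP cells, doxycycline changed 9 genes (0.0868%), of which 5 rose (0.0482%) and 4 fell (0.0386%), and 0 to 3 with any 1 of its 5 libraries left out. The doxycycline response differed between caMKK6 and control for 120 genes (1.16%), of which 28 were higher (0.27%) and 92 lower (0.887%) in caMKK6. This contrast shares the 4 libraries above. It was higher for Isyna1 by 4.56 ± 0.69, Lcn2 by 3.90 ± 0.85, Cyp17a1 by 3.59 ± 0.79 and Bmper by 3.33 ± 0.71. Mup17, Car3, Mup21 and Mup16 were lower, by -10.41 ± 1.27, -8.45 ± 1.13, -8.08 ± 1.04 and -7.71 ± 1.49. Elovl3 stood at 344, 176 and 487 FPKM in caMKK6 and 419, 599 and 434 FPKM in control GFP cells without doxycycline, so the groups overlapped there. Of the male-biased list 14 of 27 were lower in this contrast, and of the acute phase list 2 of 30 were higher. Cytochromes P450 had 6 of 48 lower and transferases 5 of 39. Interferon-stimulated genes had 1 of 28 lower, and fatty acid oxidation 1 lower and 1 higher of 36. None of 29 oxidative phosphorylation subunits, 25 proteasome subunits, 16 heat shock, 15 MHC class I presentation or 21 clock genes was called. Medians were still -0.647 for oxidative phosphorylation and -0.641 for fatty acid oxidation, against -0.132 over all genes.

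The count of 120 changed when single libraries were left out. It was 39 and 53 without control replicates 1 and 2 on doxycycline, 47 and 1945 without caMKK6 replicates 1 and 2 on doxycycline, 76, 76 and 75 without control replicates 1, 2 and 3 without doxycycline, and 70, 83 and 120 without caMKK6 replicates 1, 2 and 3 without doxycycline. It was 68 with the spread of the contrast's libraries alone.

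The mCherry cells of the same mice were set beside the GFP cells to show whether the shift was of the same size in both. The shift from control differed between GFP and mCherry cells for 1011 genes (9.75%). The GFP shift was the higher for 22 (0.212%) and the lower for 989 (9.54%). The median of this contrast over all genes was -0.44, and with median scaling it was 56 genes, of which 30 were higher and 26 lower. It was also 56 after quantile normalization and 0 with the spread of its own libraries, where 2126 genes had an unadjusted p below 0.05 (limma). With the animal as a block, since both colours came from the same mice, it was 3857, of which 191 were higher and 3666 lower. Without a library it was 331 and 49 (control mCherry replicates 1 and 2), 72 and 151 (control GFP), 1684 and 254 (caMKK6 mCherry) and 2102 and 960 (caMKK6 GFP).

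Of 30 acute phase genes the GFP shift was the higher for 3 and the lower for none. With the animal as a block it was the higher for 16 and the lower for 1. Itih4 stood at 970.4 and 1454 FPKM in caMKK6 mCherry cells and 1301 and 1233 FPKM in control mCherry cells, so that the GFP shift was larger by 2.11 ± 0.38 (limma adjusted p = 0.0073). Lrg1, a secreted acute phase glycoprotein, stood at 1589 and 1709.7 FPKM in caMKK6 and 453 and 462 FPKM in control GFP cells, and at 419 and 619 FPKM and 607 and 637 FPKM in mCherry cells (difference of shifts 2.14 ± 0.53). The difference of shifts was 2.20 ± 0.68 for Hsd17b6, a steroid dehydrogenase. Gstm3, a glutathione transferase, stood at 496 and 1050.2 FPKM in caMKK6 mCherry cells but at 5.83 and 41.8 FPKM in caMKK6 and 16.8 and 7.90 FPKM in control GFP cells (difference of shifts -6.45 ± 1.02). Wnt4, a secreted Wnt ligand, stood at 25 and 74.9 FPKM in caMKK6 mCherry cells and 0.492 and 2.11 FPKM in caMKK6 GFP cells (-4.43 ± 0.51). For Fezf1, a zinc finger factor, and Hspb1, a small heat shock protein, the difference of shifts was -4.70 ± 0.42 and -4.01 ± 0.68. By contrast, Elovl3 stood at 0.0403 and 0.181 FPKM in caMKK6 mCherry cells against 323 and 306 FPKM in control mCherry cells. Its difference of shifts was -0.01 ± 0.48 (limma adjusted p = 0.99). The caMKK6 libraries of both colours were near 0 for this gene, so that value mostly reflects the control levels. None of the 27 male-biased genes was called in this contrast, where Cyp7b1 had a difference of shifts of 1.84 ± 0.75 (limma adjusted p = 0.11). With the animal as a block 1 of them, Cyp7b1, was called higher (limma adjusted p = 0.0078).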

How the data were processed

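Messenger RNA of 23 liver libraries was taken from 1 table of FPKM values deposited by the authors for all 70 libraries. Reads were trimmed with cutadapt 1.12 and aligned with STAR 2 to mm10, per the submitters' processing notes; the counting tool and annotation are not given in the sources used here. Of 21859 gene entries, 21817 IDs were found in GENCODE M21, and the lowest share of values under 1000 reads that were whole reads within 0.02 was 98.1%. The 4 reporter and transgene entries were kept out of the tests.

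The 10371 genes that reached 1 FPKM in 2 or more liver libraries entered 1 linear model of log2(FPKM + 1), built with limma 3.58.1 under R 4.3.3 (lmFit and trended eBayes) across all 9 liver groups and leaving 14 residual degrees of freedom; fold changes on this scale understate those of low genes. Tests are two-sided, with Benjamini-Hochberg adjustment over all genes of a comparison and a call at adjusted p below 0.05. The fit was tested on simulated data. Tables were handled with Python 3.11.15 and pandas 2.3.3.

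Named genes were the reporters and sentinels, the 12 largest rises and falls among called genes with no overlap and 5 FPKM or more in the higher group (predicted genes, pseudogenes and shared symbols passed over), up to 4 called members of each of 49 lists, and 4 on each side of the doxycycline and colour contrasts; further members of the lists were chosen after their values were seen, and 1 gene is not reported here. The members and lists were chosen with earlier results of these data known. Alternatives were a pseudocount of 0.1, no filter, median scaling, quantile normalization, the libraries of a contrast alone, replicate blocks, each replicate left out, no trend, voom on recovered reads and subtraction of carried-over RNA.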

Additional observations from a re-analysis of the deposited data

Results flagged for a closer look

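The doxycycline response differed between caMKK6 and control GFP cells by a test of the difference itself for 120 genes. The log2 difference was 4.56 for Isyna1, 3.90 for Lcn2, 3.59 for Cyp17a1 and 3.33 for Bmper. For the lowest it was -10.41 for Mup17, -8.45 for Car3, -8.08 for Mup21 and -7.71 for Mup16.

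The shift from control differed between GFP and mCherry cells, by the same kind of test, for 1011 genes. The log2 difference was 2.20 for Hsd17b6, 2.14 for Lrg1 and 2.11 for Itih4. It was -6.45 for Gstm3, -4.70 for Fezf1, -4.43 for Wnt4 and -4.01 for Hspb1.

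The mCherry reporter was present in GFP libraries, where the comparison does not use it. It stood at 678 and 750 FPKM in the control GFP libraries, above the 1.16 and 24.7 FPKM of the caMKK6 GFP libraries. With the reporter taken as a measure of carried-over RNA, and that RNA subtracted, 2031 genes were called against 1560. The source of the reporter was not tested.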

How the results depend on the processing

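Between caMKK6 and control GFP cells on doxycycline 1560 genes were called, and 831 after median scaling, 648 after quantile normalization and 14 with the libraries of the contrast alone. With each replicate left out the count ran from 177 to 3671. Of the 1560 genes, 672 were also called after median scaling and 534 after quantile normalization, all in the same direction. The contrast of doxycycline responses gave 68 genes with its own libraries alone and 39 to 1945 with a replicate left out. Limma-voom on whole reads recovered from the FPKM steps called 1564 and 89 genes in these contrasts. Without doxycycline the count was 0 and ran from 0 to 1 (1 without control replicate 3). In control cells doxycycline changed 9 genes, 15 without the filter on low values and 0 to 3 with a replicate left out. The contrast of colours gave 56 genes after median scaling, 56 after quantile normalization, 0 with its own libraries alone, 3857 with the animal as a correlated replicate block and 49 to 2102 with a replicate left out. Fewer samples estimate the spread when the libraries of a contrast are used alone. In the main contrast these include the caMKK6 pair, which correlated at 0.881, against 0.985 for the control pair. The causes of these changes in count were not tested. With the replicate number as a block the main count was 1650, with the animal as a block 1894, and same-numbered libraries of the 2 genotypes, which are different mice, deviated together with a correlation of 0.0482, so the numbers do not pair them. Of 125 called genes chosen for naming, 34 kept their call without each replicate in turn. None reversed under any alternative run. With a replicate left out none could, because the 2 groups did not overlap for any called gene. The genes were also chosen as called in these same data. The precision of these values is limited by the 2 mice in a group.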
